A study of Homo sapiens with 32 samples.

Results

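Divergent promoters are stretches of DNA from which 2 genes are transcribed away from each other, on opposite strands. Here they were pairs of GENCODE protein-coding genes in hg38 whose minus-strand start lay upstream of the plus-strand start with 0 to 1000 bp between the 5' ends. A counted ATAC-seq window belonged to a pair if its centre lay between the starts or within 200 bp outside either. There were 887 such pairs, formed by 1710 genes, with a median of 132 bp between the starts (quartiles 69 and 248.5 bp). Of the 212358 counted windows, 918 (0.432%) were divergent promoter windows. They covered 834 of the pairs, and 53 pairs had no window. A single window lay at 697 pairs and 2 to 4 windows at 137. Because gene pairs can share a start, 70 windows belonged to several pairs.

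ATAC-seq measures open chromatin by the insertions of the Tn5 transposase. The libraries came from a HEK293T clone, HEK_CloneZD29, whose ZNF143 is fused to a degron, a tag for induced degradation. HEK293T is a human embryonic kidney cell line. The compound dTAGV-1 recruits a ubiquitin ligase to such a tag, and the tagged protein is then degraded. Counts were analysed for 8 control libraries given DMSO and 8 libraries collected after 30 minutes with 50 nM dTAGV-1, replicates 9 to 16 of each group. Both groups carry the tag, and every library derives from the same clone, so that another clone or an untagged line is no part of the comparison. Whether the replicates were separate cultures is not given, and p-values then measure only the spread between these libraries. ZNF143 protein was not measured in the files used here. For replicates 1 to 8 of both groups only a list of peak summits without values per library was used.

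At a divergent promoter a single nucleosome-depleted region can serve the transcription of both genes, and a factor bound there could then act on either start. Whether each pair here has a single such region was not tested, and 137 of the pairs held several windows. Such promoters are often rich in CpG and in sites for ETS factors, NRF1, NFY and YY1. ZNF143 is a zinc finger activator that was first described at small nuclear RNA and selenocysteine tRNA genes, binds many protein-coding promoters and has been described at bidirectional ones. Its zinc fingers contact a long composite site, of which ACTACA is the front, CCCA the middle and ATGC the end.

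The 13 divergent promoter windows whose accessibility fell with dTAGV-1 are the basis of what follows, and in 11 of them the stretch most like this composite site is shown here. The site was spelled as ACTACANNNCCCANNATGC, with 14 fixed positions among 19, and its best match on either strand was taken over the whole window. Capitals mark the fixed positions that match, and each sequence reads 5' to 3' on the strand of the match in hg38.
CCDC163/MMACHC: ACTACgcatCCCAagATGC
WDR87/SIPA1L3: ACTACAgttCCCAggAgGa
MICOS13/HSD11B1L: ACTACAtttCCCAggAgGC
LPXN/ZFP91: ACTtCAtctCCCAgaATGC
LYPD5/ZNF283: ACTACAtttCCCAgaAgtC
GTPBP2/MAD2L1BP: cCTACAactCCCAggAgGC
RANBP10/TSNAXIP1: ACTcCAtacCCCAcaATGC
CDC26/PRPF4: ACTACActtCCCAgacTGC
CIAO2A/SNX1: ACTACAagtCCCAgaATaC
UBQLN4/LAMTOR2: ACTAtAattCCCAgggTGC
COA3/CNTD1: ACTACAactCCCAgagTcC
These lie at chr1:45500177-45500195, chr19:37907205-37907223, chr11:58578389-58578407, chr19:43827259-43827277, chr6:43629394-43629412, chr16:67806695-67806713, chr9:113275456-113275474 and chr1:156054665-156054683 on the plus strand. Those of MICOS13/HSD11B1L (chr19:5680751-5680769), CIAO2A/SNX1 (chr15:64094064-64094082) and COA3/CNTD1 (chr17:42798753-42798771) are on the minus strand. In the other two windows, of ARFRP1/ENSG00000273154 and RNF113A/NDUFA1, the best match held 9 of the 14 positions. This spelling was devised after the sequences of the called windows had been seen, so that its frequency among them is a description and not independent of the calls.

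The stretch between the starts of CCDC163 and MMACHC is shown whole because this window changed most. It spans chr1:45500080-45500299, is given on the plus strand with the match in capitals, holds no annotated exon and has a GC content of 52.3%.
CCDC163/MMACHC: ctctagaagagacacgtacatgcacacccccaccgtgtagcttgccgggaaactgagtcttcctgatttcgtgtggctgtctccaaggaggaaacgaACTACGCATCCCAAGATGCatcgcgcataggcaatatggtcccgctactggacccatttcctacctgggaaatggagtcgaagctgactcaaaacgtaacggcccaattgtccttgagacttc
The stretch between RANBP10 and TSNAXIP1, chr16:67806561-67806764, is shown in the same way for comparison with it and has a GC content of 63.2%.
RANBP10/TSNAXIP1: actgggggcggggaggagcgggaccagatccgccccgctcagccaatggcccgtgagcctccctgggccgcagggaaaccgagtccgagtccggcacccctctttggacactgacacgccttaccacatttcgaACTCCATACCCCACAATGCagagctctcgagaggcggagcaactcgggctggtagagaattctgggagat
In CCDC163/MMACHC the match is centred 107 bp from the minus-strand start and in RANBP10/TSNAXIP1 144 bp from it.

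The 16 counted libraries held 2275856 to 13671039 counts, the fewest in control replicate 12. Replicates 11 and 12 of both groups had a flatter signal than the rest. The top decile of windows took 32.0% of counts in control replicate 12, 39.1% in dTAGV-1 replicate 12, 41.9% in dTAGV-1 replicate 11 and 45.9% in control replicate 11, against 48.1% to 49.5% in the other libraries. Numbers of calls are therefore given with all libraries and, where it matters, without replicates 11 and 12. The part of the flat signal in each difference was not tested beyond that.

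Divergent promoter windows were among the more accessible windows. Of the 918, 890 were tested, at 811 pairs. Of the 28 that were not, 25 were listed at 0 in all 16 libraries and 3 did not pass the filter on low counts. The 25 had peak values of the authors, on the -log10 q scale, between 24.9 and 1410 (median 252), against a median of 692 over the 918, and 12 of them lay on chromosome 6. Windows listed at 0 throughout made up 2.72% of the divergent promoter windows and 1.33% of all counted windows. Why they are at 0 is not given in the sources used here, and they were not read as closed. The median level of the 890 tested divergent promoter windows was 4.52 log2 CPM (counts scaled to library size, quartiles 3.77 and 5.26). That of all 185040 tested windows was 1.46. The median over the tested divergent promoter windows in each library lay between 3.74 and 4.62 log2 CPM in the 8 control libraries, with a median of 4.58. In the 8 dTAGV-1 libraries it lay between 4.22 and 4.63, with a median of 4.51. The groups overlapped, and the lowest control value was that of replicate 12. Without replicates 11 and 12 the ranges were 4.57 to 4.62 and 4.50 to 4.63.

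The median log2 fold change, dTAGV-1 minus control, was 0.0021 over the tested divergent promoter windows (quartiles -0.059 and 0.055) and 0.0077 over all tested windows. Of the 890, 432 (48.5%) had a negative fold change. With edgeR's quasi-likelihood test and Benjamini-Hochberg adjustment over all tested windows at 0.05, 13 divergent promoter windows (1.46%) were called lower with dTAGV-1, against 0.213% of all tested windows. These lay at 14 pairs, because the window of LPXN/ZFP91 also belongs to the pair of LPXN with the readthrough gene ZFP91-CNTF. No divergent promoter window was called higher by edgeR, and of all tested windows 0.00108% were. At an unadjusted p under 0.05, 49 divergent promoter windows (5.51%) were lower and 1 (0.112%) was higher, while the shares of all tested windows were 1.55% lower and 1.30% higher.

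Starts of other kinds give a closer comparison, since most windows of the genome are weaker. Of 8632 tested windows at other coding starts, 94 (1.09%) were called lower and 1 higher. Of 1153 at coding starts with a divergent lncRNA, 10 (0.867%) were called lower and none higher. The difference of these shares from the 1.46% at divergent coding pairs was not tested. In 16 of 21 other settings the share was higher at divergent coding pairs than at other coding starts. In 5 it was lower, for example 0.787% against 0.900% without control replicate 16 and 0.896% against 0.905% with no filter on low counts. By edgeR at an unadjusted p under 0.05, 5.51% of divergent promoter windows were lower with all libraries. That share was 3.42% at other coding starts and 2.43% at coding starts with a divergent lncRNA. Other coding starts had a median level of 3.90 log2 CPM, against 4.52 at divergent promoter windows. When the divergent promoter windows were ranked by level, the lowest 223 held 2 of the calls, the next 222 held 2, the 222 after them 7, and the highest 223 held 2. The shares called in these ranges of level were 0.897%, 0.901%, 3.15% and 0.897%. In the same ranges the shares were 0.822%, 1.46%, 1.24% and 1.19% at other coding starts. At coding starts with a divergent lncRNA they were 1.52%, 1.32%, 0.336% and 0%. These differences were not tested.

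**Figure D1:**
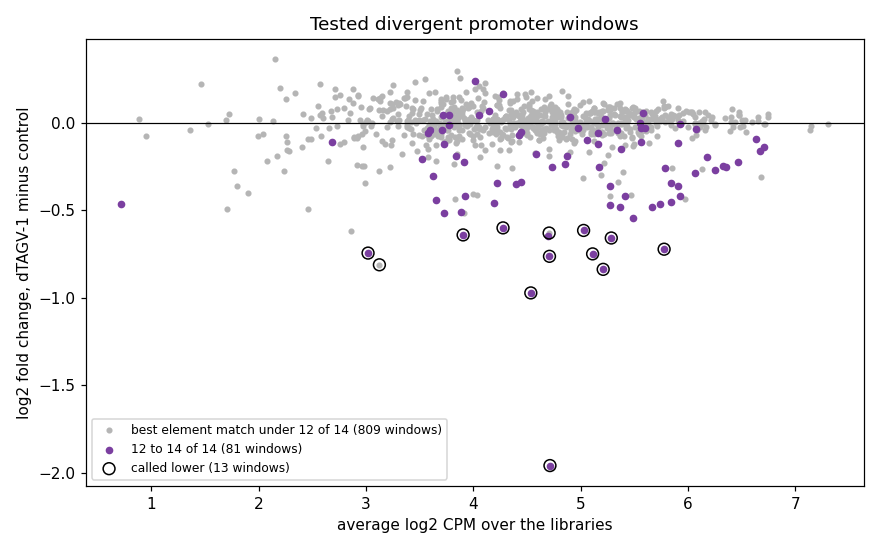
Log2 fold change (dTAGV-1 minus control) against average log2 CPM for the 890 tested divergent promoter windows. Most points lie around 0, and the 13 circled windows called lower lie between -1.96 and -0.60, with none called higher.

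CCDC163/MMACHC changed most. MMACHC processes cobalamin, vitamin B12, after its uptake into the cell, and its start lies 221 bp from that of CCDC163. The window, chr1:45499959-45500359, has its centre in intergenic sequence between the starts. Its level was 4.64 log2 CPM at the lowest, 5.45 at the median and 5.51 at the highest of the 8 control libraries, and 2.52, 3.50 and 3.68 with dTAGV-1. The highest dTAGV-1 library was thus under the lowest control. The log2 fold change was -1.96 ± 0.15 (SE; edgeR, adjusted p = 2.7e-12), which leaves 25.7% of the control level. It was the only divergent promoter window whose 2 groups of 8 did not overlap (0.112% of those tested), while 0.0713% of all tested windows had dTAGV-1 lower without overlap.

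WDR87/SIPA1L3 pairs a WD repeat protein with a protein related to GTPase activators of Rap, with 531 bp between the starts. In the window at chr19:37906897-37907297 the control libraries gave 4.24, 4.92 and 5.28 log2 CPM (lowest, median, highest) and the dTAGV-1 libraries 3.17, 3.96 and 4.37. In 7 of 8 dTAGV-1 libraries the level was under the control minimum. Accessibility fell by 0.97 on the log2 scale (SE 0.15; edgeR, adjusted p = 7.41e-05). The other window of this pair, nearer WDR87, had a log2 fold change of -0.087 and was not called.

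MICOS13 encodes a subunit of the complex that shapes mitochondrial cristae, and HSD11B1L a short-chain dehydrogenase. Their starts are 88 bp apart, and the centre of the window, chr19:5680442-5680842, lies in the 5' untranslated part of HSD11B1L and in an intron of RPL36. Control levels were 4.97, 5.66 and 5.78 log2 CPM and dTAGV-1 levels 4.45, 4.71 and 5.05. The ranges overlapped, and 6 dTAGV-1 values were under the control minimum. The window fell by 0.84 (SE 0.14; edgeR, adjusted p = 0.000541).

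LPXN encodes leupaxin, an adaptor of focal adhesions, and ZFP91 a zinc finger protein that acts as a ubiquitin ligase. The window at chr11:58578099-58578499 lies between starts 843 bp apart. Control libraries gave 4.19, 5.09 and 5.30 log2 CPM and dTAGV-1 libraries 4.08, 4.31 and 4.43. In 3 dTAGV-1 libraries the level was below the lowest control, replicate 12. The fall was 0.76 (SE 0.14; edgeR, adjusted p = 0.00162).

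LYPD5/ZNF283 joins a Ly6-type protein to a zinc finger gene at 115 bp. This is the weakest of the called windows, chr19:43827112-43827512, with 2.62, 3.43 and 3.61 log2 CPM in control and 2.23, 2.63 and 2.90 with dTAGV-1. Here 3 dTAGV-1 values were under the control minimum, which came from replicate 14. The log2 fold change was -0.74 ± 0.15 (SE; edgeR, adjusted p = 0.00532).

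GTPBP2, a GTPase of ribosome rescue, and MAD2L1BP, which silences the spindle checkpoint, start 276 bp apart. At chr6:43629150-43629550 control levels were 4.33, 5.52 and 5.68 log2 CPM and dTAGV-1 levels 4.06, 4.71 and 4.97. The lowest control, replicate 12, lay below 7 of the 8 dTAGV-1 libraries. The fall was 0.75 (SE 0.15; edgeR, adjusted p = 0.00736).

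ARFRP1, a small GTPase of the trans-Golgi network, is paired with the unnamed coding gene ENSG00000273154 at 839 bp. The called window, chr20:63707791-63708191, has its centre in the untranslated part of ARFRP1 and in an intron of ZGPAT. Control libraries gave 2.24, 3.52 and 3.75 log2 CPM and dTAGV-1 libraries 1.44, 2.56 and 3.30. Only 1 dTAGV-1 library was below the lowest control, and the test gave -0.81 ± 0.17 (SE; edgeR, adjusted p = 0.00755). A second window of the pair had a log2 fold change of 0.36 and was not called.

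RANBP10, a protein that binds Ran, and TSNAXIP1, which binds a partner of translin, start 205 bp apart. Their window, chr16:67806495-67806895, was the most accessible of the 13, with 5.29, 6.16 and 6.29 log2 CPM in control and 4.78, 5.45 and 5.57 with dTAGV-1. In 2 dTAGV-1 libraries the level was below the lowest control. It fell by 0.72 (SE 0.15; edgeR, adjusted p = 0.0109).

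CDC26, a subunit of the anaphase-promoting complex, and PRPF4, a component of the U4/U6 small nuclear ribonucleoprotein, had the shortest distance among the called pairs, 70 bp. At chr9:113275401-113275801 control levels were 4.88, 5.65 and 5.79 log2 CPM and dTAGV-1 levels 4.53, 5.04 and 5.08. The ranges overlapped, with 3 dTAGV-1 values under the control minimum. The fall was 0.66 (SE 0.15; edgeR, adjusted p = 0.0209).

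The last of the called windows were near the threshold. CIAO2A/SNX1 (chr15:64093730-64094130, starts 266 bp apart) joins a factor of cytosolic iron-sulfur protein assembly to a sorting nexin of retromer. Its control levels were 3.82, 4.63 and 4.74 log2 CPM, its dTAGV-1 levels 3.43, 3.97 and 4.12, and its log2 fold change -0.60 ± 0.14 (SE; edgeR, adjusted p = 0.0351). RNF113A/NDUFA1 (chrX:119871580-119871980, 99 bp) joins a spliceosomal RING finger protein to a subunit of respiratory complex I. Control levels were 4.35, 5.04 and 5.24 and dTAGV-1 levels 3.61, 4.42 and 4.64, with a log2 fold change of -0.63 ± 0.15 (SE; edgeR, adjusted p = 0.0369). Under the control minimum, that of replicate 12, there were 1 and 2 dTAGV-1 values.

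UBQLN4, a ubiquilin that delivers proteins to the proteasome, and LAMTOR2, a subunit of the Ragulator complex of lysosomes, start 984 bp apart, close to the limit of 1000 bp. At chr1:156054547-156054947 control levels were 4.33, 5.35 and 5.49 log2 CPM and dTAGV-1 levels 4.41, 4.65 and 4.89. No dTAGV-1 library was below the lowest control, while control replicate 12 lay below all other control libraries, and the log2 fold change was -0.61 ± 0.14 (SE; edgeR, adjusted p = 0.0435). COA3, an assembly factor of cytochrome c oxidase, and CNTD1, a cyclin-like protein of meiotic crossing over, start 96 bp apart. At chr17:42798558-42798958 control levels were 3.02, 4.20 and 4.64 and dTAGV-1 levels 2.99, 3.52 and 3.83. It is the called window with the largest p-value and was named after its values were seen (log2 fold change -0.64 ± 0.15, SE; edgeR, adjusted p = 0.0446).

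**Figure D2:**
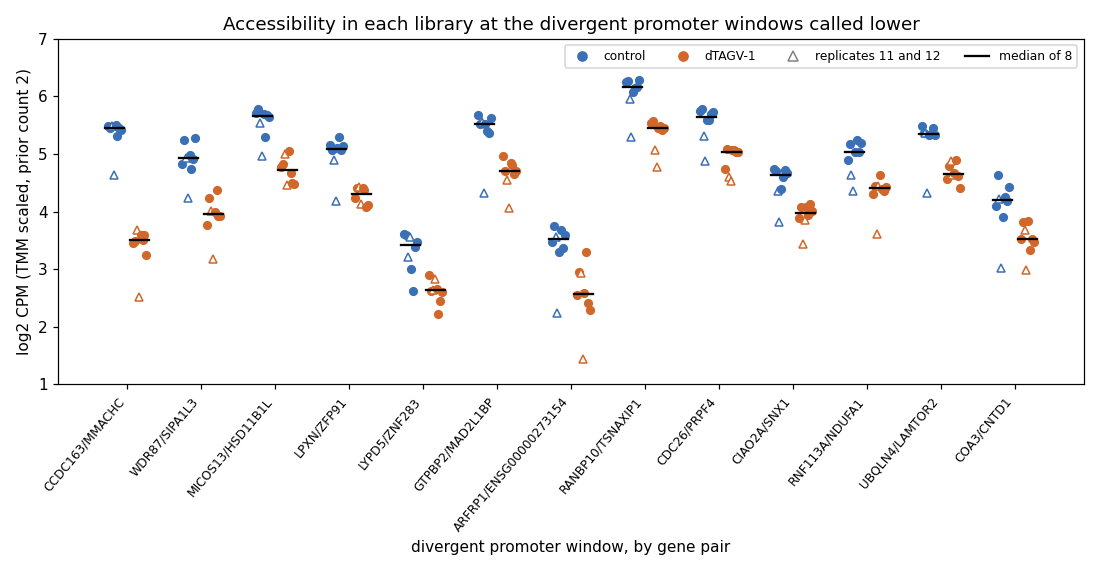
Log2 CPM in each of the 16 libraries at the 13 divergent promoter windows called lower, with control in blue, dTAGV-1 in orange, replicates 11 and 12 as open triangles and bars for the median of 8. Every dTAGV-1 median lies below its control median, and the lowest control library is replicate 12 in 12 of the 13 windows.

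The groups lay further apart without the flat libraries. Without replicates 11 and 12, the 6 dTAGV-1 values were all under the 6 control values at 12 of the 13 windows, LYPD5/ZNF283 being the exception. The same held for 44 of the 890 tested divergent promoter windows (4.94%), against 0.452% of all tested windows. The share was 2.77% at other coding starts and 2.08% at coding starts with a divergent lncRNA. The first 7 windows above, from CCDC163/MMACHC to ARFRP1/ENSG00000273154, were called under each of 21 other settings of the test or sets of libraries. RANBP10/TSNAXIP1 lost its call in 3 of them, CDC26/PRPF4 in 10, RNF113A/NDUFA1 in 13, UBQLN4/LAMTOR2 and COA3/CNTD1 in 14 each, and CIAO2A/SNX1 in 15. Their fold changes kept their sign in all 21.

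The test without replicates 11 and 12 called more divergent promoter windows. It called 49 lower (5.51%), at 54 pairs, and none higher, against 0.411% of all tested windows called lower, 2.89% at other coding starts and 2.17% at coding starts with a divergent lncRNA. All 13 windows called with the full set were among the 49. The median log2 fold change of the 49 was -0.47 and their range -1.97 to -0.22. Without control replicate 12 alone, 30 were called, and with all libraries and the replicate number as a block in the fit, 41. Other omissions lowered the number from 13, to 7 without control replicate 9, 10 or 16 and to 8 without control replicate 13, 14 or 15 or dTAGV-1 replicate 9 or 16.

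Among the 36 added windows some examples, named after their values were seen, follow with their values without replicates 11 and 12. FBXO15/TIMM21, an F-box protein and a subunit of the mitochondrial import machinery, had -0.71 as its log2 fold change (edgeR, adjusted p = 1.53e-09). INTS9/HMBOX1, of which INTS9 is a subunit of Integrator, had -0.54 (edgeR, adjusted p = 1.51e-08). TLN1/CREB3, talin and a transcription factor of the endoplasmic reticulum, had -0.49 (edgeR, adjusted p = 8.82e-08). LMBRD2/SKP2 had -0.45, where SKP2 is the substrate receptor of a ubiquitin ligase of the cell cycle. C1orf109/CDCA8 had -0.41, where CDCA8 encodes borealin of the chromosomal passenger complex. MRPL50/ZNF189 had -0.44 and CALR3/C19orf44 -0.47. With all libraries the adjusted p-values of these 7 pairs were 0.0744 for FBXO15/TIMM21, 0.421 for INTS9/HMBOX1, 0.464 for CALR3/C19orf44 and 1.0 for the others.

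**Figure D3:**
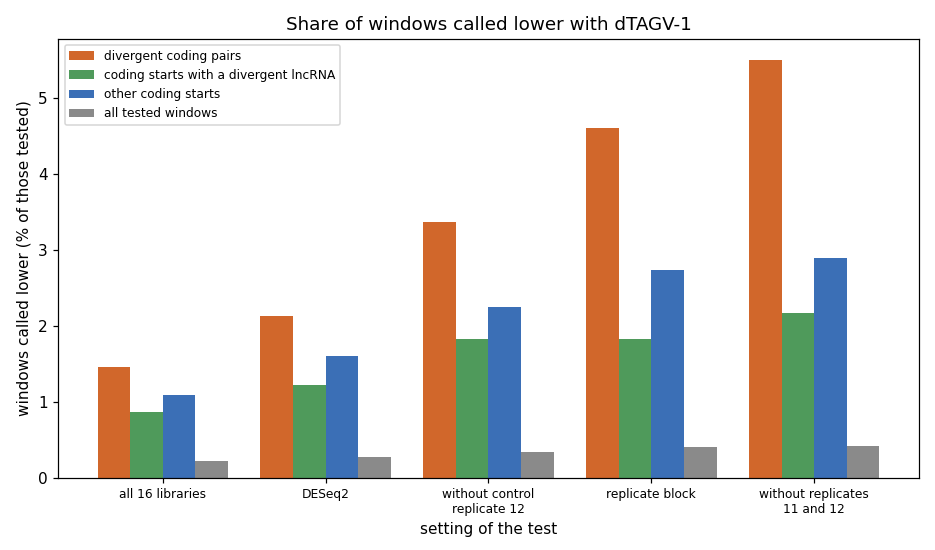
Share of tested windows called lower (%), for 4 sets of windows under 5 settings. At divergent coding pairs the share rises from 1.46% with all 16 libraries to 5.51% without replicates 11 and 12, and the other sets rise with it.

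The long element was found in more divergent promoter windows than in windows of other starts. At 12 or more of its 14 positions it was present in 81 of the 890 tested divergent promoter windows (9.10%), in 4.89% at other coding starts, in 4.60% at coding starts with a divergent lncRNA and in 0.886% of all tested windows. At 13 or more positions the shares were 5.06%, 2.60%, 2.60% and 0.307%, and at 11 or more 12.6%, 7.61%, 7.11% and 4.01%. The sets also differed in level. By rising range of level, the shares at 12 or more positions were 5.38%, 8.11%, 8.11% and 14.8% at divergent coding pairs. They were 2.24%, 6.08%, 6.73% and 10.1% at other coding starts. At coding starts with a divergent lncRNA they were 1.82%, 4.61%, 3.69% and 9.95%. These differences were not tested, and the element was spelled after the called sequences were seen. A match is a likeness of letters and not a measured binding site.

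Fold changes were lower in windows with 11 or more matching positions than in those with fewer. The 662 windows with a best match of 9 or fewer positions had a median log2 fold change of 0.011, and 2 were called lower. The 116 with 10 positions had a median of 0.0050 and no call. The 31 with 11 positions had a median of -0.13 and no call, although 7 were lower at an unadjusted p under 0.05. The 81 with 12 or more had a median of -0.23, which was -0.24 at 12 positions, -0.25 at 13 and -0.14 at 14. Of these, 11 (13.6%) were called and 32 (39.5%) were lower at an unadjusted p under 0.05. The element and its thresholds were chosen after the called sequences were seen. The contrast between numbers of matching positions is therefore a description and not independent of the calls.

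Windows of other starts with such a match also had negative medians. At other coding starts 422 windows held 12 or more positions, with a median log2 fold change of -0.28 and 74 called (17.5%). At coding starts with a divergent lncRNA there were 53, with a median of -0.18 and 8 called (15.1%). Of the called windows, 11 of 13 at divergent coding pairs held 12 or more positions, as did 74 of 94 at other coding starts and 75.9% of the 395 called lower in all. No difference in response between these sets was tested.

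**Figure D4:**
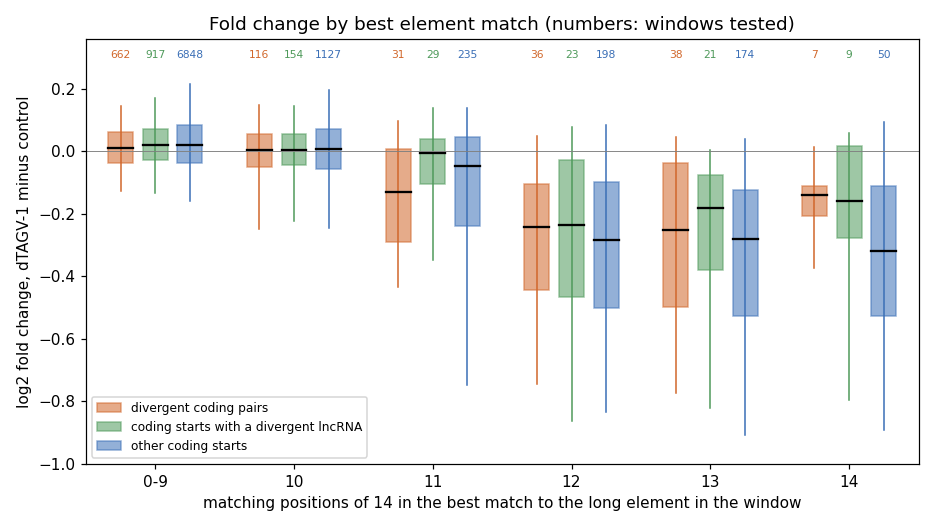
Log2 fold change by the number of matching positions in the best match to the long element, for 3 sets of windows at coding starts. Boxes span the quartiles, black lines are medians, thin lines run from the 5th to the 95th percentile and numbers count windows. Medians lie near 0 up to 10 positions and at -0.25 to -0.14 for divergent coding pairs with 12, 13 and 14. The element was spelled after the called sequences were seen.

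Complete matches were few. All 14 positions matched in 7 tested divergent promoter windows, and none of these was called with all libraries. Among windows with 12 or more positions 13.6% were called, and 7 windows are too few for comparison with that share. Log2 fold changes of the 7 were -0.42 at PPP2R3C/ENSG00000258790, -0.27 at NUDCD1/ENY2, -0.15 at EIF2B4/SNX17, -0.14 at ELOC/TMEM70, -0.11 at both FGD6/VEZT and RIDA/POP1, and 0.068 at UFD1/CDC45. Without replicates 11 and 12, NUDCD1/ENY2 was called and ELOC/TMEM70 was not. At other coding starts 11 of 50 windows with a complete match were called, with a median log2 fold change of -0.32. Those 50 were weaker, with a median of 4.42 log2 CPM against 5.56 for the 7, and the difference in calls was not tested. The 43 divergent promoter windows with a whole front and middle only had a median of -0.20 and 5 calls, and the 18 with a whole middle and end only had -0.10 and 2 calls. In 8 windows a whole front and a whole end were present but not in 1 complete element, with a median of -0.48 and 3 calls. The 814 windows with neither had a median of 0.0086 and 3 calls.

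The position of the match varied. Of the 13 best matches in called windows, 8 lay wholly between the starts, 9 were on the plus strand and 8 within 100 bp of the window centre. Among the 81 windows with 12 or more positions, 49 had the match wholly between the starts, of which 8 were called, and 32 did not, of which 3 were called. Medians were -0.25 and -0.23. The 42 on the plus strand and the 39 on the minus strand had medians of -0.21 and -0.25. In the 9 windows whose match lay over 100 bp from the centre the median was -0.54 and 4 were called, against -0.20 and 4 called for the 50 within 50 bp.

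**Figure D5:**
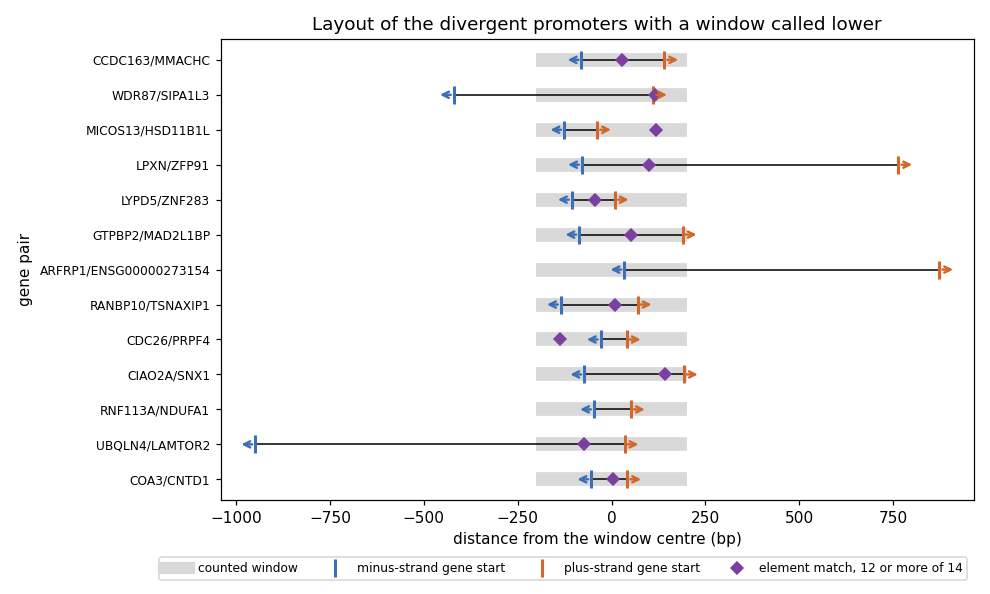
Gene starts and element matches relative to the centre of each called window (bp), with the counted window in grey, the minus-strand start in blue, the plus-strand start in orange and matches of 12 or more positions as diamonds. The match lies wholly between the starts in 8 of the 11 windows that have one, and ARFRP1/ENSG00000273154 and RNF113A/NDUFA1 have none.

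The core of the element alone is CCCA followed after 1 base by AATGC or CATGC on either strand. It was searched within 100 bp of the window centre, a shorter stretch than the whole window searched for the long element. There the core was present in 20 tested divergent promoter windows (2.25%), in 1.11% at other coding starts and in 0.594% of all tested windows. It was present in 15.4% of the 13 called windows and 13.2% of the 395 called lower in all. Over the whole window these shares were 30.8% and 15.7%. Of the 20, 15 had a negative fold change, the median was -0.13 and the range -0.72 to 0.068. RANBP10/TSNAXIP1 and CIAO2A/SNX1 were called, 10% of the 20, against 1.46% of all tested divergent promoter windows and 0.213% of all tested windows. At other coding starts 13.5% of windows with the core were called. Without replicates 11 and 12, 8 of the 20 were called, where 5.51% of divergent promoter windows and 0.411% of all tested windows were. These differences were not tested.

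The most accessible windows with the core and no call were those of ELOC/TMEM70, NUDCD1/ENY2 and CEP290/TMTC3. ELOC encodes elongin C and TMEM70 an assembly factor of ATP synthase. Control levels at that window were 5.62, 6.85 and 7.05 log2 CPM, dTAGV-1 levels 6.09, 6.75 and 6.82, and the log2 fold change -0.14 ± 0.17 (SE; edgeR, adjusted p = 1.0), with overlapping groups. At NUDCD1/ENY2, of which ENY2 is a subunit of the SAGA coactivator, control levels were 5.10, 6.49 and 6.80 and dTAGV-1 levels 5.63, 6.22 and 6.36 (log2 fold change -0.27 ± 0.17, SE; edgeR, adjusted p = 1.0). CEP290, a protein of the ciliary transition zone, and TMTC3, a mannosyltransferase, gave 4.62, 6.25 and 6.36 in control and 5.13, 5.81 and 5.91 with dTAGV-1 (log2 fold change -0.42 ± 0.17, SE; edgeR, adjusted p = 1.0). Its best match to the long element, chr12:88142246-88142264 on the minus strand, is shown for comparison with those of the called windows.
CEP290/TMTC3: ACTtCAgttCCCAgcATGC
Without replicates 11 and 12, NUDCD1/ENY2 (edgeR, adjusted p = 0.000946) and CEP290/TMTC3 (9.43e-08) were called and ELOC/TMEM70 was not (0.847).

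Sites of other promoter factors were also common at divergent promoters. Within 100 bp of the centre, an ETS site (CCGGAAGT or CCGGAAGC) was present in 18.7% of tested divergent promoter windows, 14.2% of those at coding starts with a divergent lncRNA, 10.2% of those at other coding starts and 1.52% of all tested windows. In the same order, the NRF1 site GCGCNTGCGC was present in 13.5%, 10.6%, 8.62% and 0.964%, and the YY1 site AANATGGCGGC in 2.58%, 1.65%, 2.02% and 0.199%. The NFY box, CCAAT followed by C or G and then A or G, was present in 24.8%, 24.7%, 18.5% and 7.67%. The GC box GGGGCGGGG was present in 20.2%, 27.8%, 23.5% and 3.92%. All were searched on both strands, and median GC content was 64.6%, 68.3%, 66.1% and 48.1%.

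Distance and placement gave small numbers of calls in every class. Windows of pairs at most 100 bp apart held 4 calls among 289 (1.38%), and those over 100 and up to 200 bp 1 among 233 (0.429%). Those over 200 and up to 500 bp held 4 among 257 (1.56%), and those over 500 bp 4 among 111 (3.60%). Windows centred between the starts held 11 calls among 584 (1.88%) and those outside 2 among 306 (0.654%). For comparison, 1.46% of all tested divergent promoter windows and 0.213% of all tested windows were called lower. Just inside the limit of 1000 bp, 32 windows of pairs 902 to 995 bp apart had a median log2 fold change of -0.0065 with 2 calls. Just outside it, 11 windows of pairs 1008 to 1085 bp apart had a median of 0.014 with no call. The called pairs held 6 other tested windows, with log2 fold changes between -0.25 and 0.36, and none was called. Besides those of WDR87/SIPA1L3 and ARFRP1/ENSG00000273154 they were -0.25 and -0.19 at UBQLN4/LAMTOR2, -0.24 at CIAO2A/SNX1 and -0.036 at the window shared by the pairs of LPXN.

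Groups of genes by function were described by the windows of pairs with at least 1 member. Mitochondrial ribosomal protein genes had 18 tested windows, none called and a median log2 fold change of -0.010, with -0.52 at APBA3/MRPL54 the lowest. Respiratory chain genes had 26 windows, of which RNF113A/NDUFA1 was called, and a median of -0.0051. The window of COX16/ADAM21, an assembly factor of cytochrome c oxidase and a metalloprotease, had -0.62 with an adjusted p of 0.0569 by edgeR. Genes named ZNF had 33 windows, of which LYPD5/ZNF283 was called, and a median of -0.037. For comparison, 1.46% of all tested divergent promoter windows were called.

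Core histone genes, most of which pair with each other, had 11 tested windows with log2 fold changes between -0.059 and 0.095. Cytosolic ribosomal protein genes had 12 windows with a median of 0.020, aminoacyl-tRNA synthetase genes 5 with -0.0091, and proteasome genes 10 with 0.0036. DNA repair and replication genes had 32 with 0.011 and cilium genes 12 with -0.028. None of the windows of these groups was called lower or higher by edgeR with all libraries. The shares called lower were 1.46% of divergent promoter windows and 0.213% of all tested windows, and groups of 5 to 32 windows are too small to tell from them. At an unadjusted p under 0.05 the numbers lower were 1 each for cytosolic ribosomal protein, DNA repair and replication, and cilium genes and 0 for the others. The shares at that p were 5.51% of divergent promoter windows and 1.55% of all tested windows. Without replicates 11 and 12, where 5.51% of divergent promoter windows and 0.411% of all tested windows were called, the calls were 4 for ZNF genes, 2 each for mitochondrial ribosomal protein, respiratory chain and cilium genes, and 1 each for proteasome, cytosolic ribosomal protein and DNA repair and replication genes.

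Of 10 textbook divergent pairs, 3 met the rule with the gene starts of GENCODE. NPAT/ATM, a coactivator of histone genes and the kinase of the DNA damage response, had 5.13, 6.51 and 6.71 log2 CPM in control and 5.60, 6.51 and 6.82 with dTAGV-1. The groups overlapped throughout (log2 fold change 0.036 ± 0.18, SE). PPAT/PAICS, enzymes of purine synthesis, had a log2 fold change of -0.055 ± 0.15 (SE). SARS2/MRPS12, a mitochondrial seryl-tRNA synthetase and a mitochondrial ribosomal protein, had 0.068 ± 0.14 (SE). None of the 3 was called (edgeR, adjusted p = 1.0 for each), and intervals of 2 standard errors reached from -0.32 to 0.39, from -0.35 to 0.24 and from -0.21 to 0.35.

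The summit list of replicates 1 to 8 covered these promoters too. Of its 259926 summits, at least 1 lay in 823 of the 918 divergent promoter windows (89.7%), in 81.2% of windows at other coding starts and in 77.8% of all counted windows. A summit lay in 12 of the 13 called windows. Of the 53 pairs without a counted window, 6 held a summit.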

How the data were processed

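ATAC-seq libraries of 4 groups of 8 were described by the labels, and counts were analysed for 16 of them, replicates 9 to 16. The authors deposited whole-number counts per window of 401 bp, not normalized, and a -log10 q per window, per the file headers. They also deposited a summit list with a -log10 score. The values on the -log10 scale started at 2.0 and were not used in any test. Cutadapt 1.8.1, Bowtie2 2.4.4, SAMtools 1.9 and hg38 are named in the submitters' processing notes. Peak caller, counting tool and any shift for Tn5 are not given in the sources used here. Each group's labels give the replicate numbers. The control is called DMSO in the titles.

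Members were found with GENCODE release 44. Counts of all windows went into edgeR 4.0.16 under R 4.3.3, with the filterByExpr filter, TMM scaling and the quasi-likelihood test, dTAGV-1 against control with no covariate, and Benjamini-Hochberg adjustment at 0.05. Log2 CPM used a prior count of 2, and standard errors were derived from the test statistic. DESeq2 1.42.0 was an alternative. Sequences were searched with Python 3.11.15 and pysam 0.24.0. The number of columns left unused was 0. Replicates were compared by the chi-square of their counts, which was 1.63 to 5.01 per degree of freedom over 56 pairs within groups, so that none agreed within sampling noise.

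Named pairs were the 12 with the smallest p-values among those called, all windows called higher (none), the 3 most accessible windows with the core and no call, and 10 textbook pairs. Other windows of named pairs may be given, as may the 3 smallest p-values of each gene group. Members, gene groups and settings were chosen with earlier results of these data known. The long element and its thresholds were chosen after the called sequences were seen.

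Tested on simulated data over 185040 windows, dTAGV-1 against control, edgeR recovered 18 of 50 windows with a log2 change of -1, 30 of 50 at -1.5 and 3 of 50 at -0.5, with 2 false calls. At a log2 change of 1 it recovered 37 of 50. The changed windows were drawn from all tested windows, with a median of 1.46 log2 CPM against 4.52 at divergent promoters. Flat libraries were not simulated. Recovery at divergent promoter windows in particular was not tested.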

Additional observations from a re-analysis of the deposited data

Results flagged for a closer look

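Of 40 groups of 8 libraries looked at, 19 held a library far below the others by Dixon's criterion, which chance meets in about 1 in 20 independent groups. These groups are the same 16 libraries read at several windows and over their median. They are not independent, so that the 19 cannot be set against 1 in 20. Control replicate 12, the library with the fewest counts and the flattest signal, was the low library in 15. It gave 4.64 log2 CPM at CCDC163/MMACHC (the others 5.31 to 5.51), 4.19 log2 CPM at LPXN/ZFP91 (the others 4.90 to 5.30), 4.33 log2 CPM at GTPBP2/MAD2L1BP (the others 5.36 to 5.68), 2.24 log2 CPM at ARFRP1/ENSG00000273154 (the others 3.31 to 3.75) and 5.29 log2 CPM at RANBP10/TSNAXIP1 (the others 5.96 to 6.29). It gave 3.82 log2 CPM at CIAO2A/SNX1 (the others 4.37 to 4.74), 4.33 log2 CPM at UBQLN4/LAMTOR2 (the others 5.33 to 5.49), 3.02 log2 CPM at COA3/CNTD1 (the others 3.91 to 4.64), 5.62 log2 CPM at ELOC/TMEM70 (the others 6.65 to 7.05) and 5.10 log2 CPM at NUDCD1/ENY2 (the others 6.11 to 6.80). It gave 4.62 log2 CPM at CEP290/TMTC3 (the others 5.90 to 6.36), 5.13 log2 CPM at NPAT/ATM (the others 6.15 to 6.71), 4.40 log2 CPM at PPAT/PAICS (the others 5.27 to 5.54) and 4.68 log2 CPM at SARS2/MRPS12 (the others 5.27 to 5.65). Its median over the divergent promoter windows was 3.74 log2 CPM (the others 4.52 to 4.62).

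Among the dTAGV-1 libraries, replicate 12 gave 2.52 log2 CPM at CCDC163/MMACHC (the others 3.25 to 3.68) and 4.06 log2 CPM at GTPBP2/MAD2L1BP (the others 4.55 to 4.97). Replicate 11 gave 3.43 log2 CPM at CIAO2A/SNX1 (the others 3.86 to 4.12) and 3.61 log2 CPM at RNF113A/NDUFA1 (the others 4.31 to 4.64). A low control library makes the fall with dTAGV-1 smaller, and a low dTAGV-1 library makes it larger. Without dTAGV-1 replicate 11 the log2 fold change at CIAO2A/SNX1 was -0.55, against -0.60 with all libraries. At RNF113A/NDUFA1 it was -0.56 against -0.63, and neither window was then called. The part of flat signal in these differences was not tested beyond leaving libraries out.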

How the results depend on the processing

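With relative log expression size factors the counts were within 1.5 times those reported (397 windows called in all, 13 divergent promoter windows at 14 pairs). With no filter on low counts, 8 windows at 9 pairs were called. DESeq2 called 19 windows, at 22 pairs. Without replicates 11 and 12 of both groups, 781 windows were called in all, 49 at divergent promoters and 54 pairs. Leaving out 1 library at a time gave 321 to 632 windows in all, 7 to 30 divergent promoter windows and 8 to 34 pairs, the highest of each without control replicate 12, and median log2 fold changes over the divergent promoter windows of -0.065 to 0.035. The causes were not tested.

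The replicate number as a block in the edgeR fit gave 753 calls in all, 41 divergent promoter windows and 46 pairs. The correlations of deviations between libraries with the same number were all positive, 0.028 to 0.336, and 5 of 8 libraries correlated best with their own number, a hint of pairing in the data. Replicates 11 and 12 had a flatter signal in both groups, another hint of this kind. Since not every correlation was over 0.1, a limit that was not tested, and no label gives a shared batch, the fit without the block was kept. These values do not settle whether the libraries are paired, and the 13 calls reported rest on the fit without the block.

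Pairs at most 500 bp apart gave 9 called pairs, with 9 windows. Window centres between the starts only gave 11 windows, and centres up to 500 bp outside either start gave 18. The core lay within 50 bp of the centre in 10 windows rather than 20, and anywhere in the window in 27. With 13 or more positions the long element was present in 6 of the called windows rather than 11, an alternative chosen after seeing the data.

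When 1 library was left out, the log2 fold change ran from -0.071 to 0.12 at NPAT/ATM and from -0.00088 to 0.11 at SARS2/MRPS12. The fold change of NPAT/ATM had the opposite sign in 2 settings (-0.071 and -0.031) and that of SARS2/MRPS12 in 1 (-0.00088), none of them called. The uncalled window shared by the pairs of LPXN ran from -0.099 to 0.022, above 0 in 2 settings (0.022 and 0.0072). The called windows, the other 5 windows of called pairs, the 3 windows with the core and PPAT/PAICS kept their sign in all 21 settings. Of the values for single windows, 69 lost a call and 4 gained one. The fewest counts were in control replicate 12, and the part of depth in the calls was not tested. Of the 28 untested divergent promoter windows, 3 were too low and 25 were listed at 0.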
